A study of Homo sapiens with 9 samples.

Results

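The borders described here are positions on the 22 autosomes of IMR90 human diploid fibroblasts at which contacts between the chromatin to the left and to the right were depleted in every Hi-C library. Hi-C ligates DNA ends that lie close together in the nucleus and counts each ligated pair as a contact. At every 40 kb step an insulation score was taken as the log2 of the mean contact between the 13 bins (520 kb) on either side, minus the median of the chromosome, and a border was a local minimum of that score with a prominence of at least 0.1. Of 5038 borders in the mean matrix of growing cells, 2603 had a prominence of 0.5 or more, and 2405 of these (92.4%) were found within 1 bin in all 5 Hi-C libraries. These 2405 strong shared borders make up 47.7% of all borders. Of the 2435 borders with a lower prominence, 1686 (69.2%) were shared by all libraries, and they serve as the weaker shared borders below.

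All libraries came from IMR90 cells, lung fibroblasts of finite lifespan, infected with ER:HRAS(G12V), an oncogenic HRAS fused to an oestrogen receptor domain that 4-hydroxytamoxifen (4OHT) switches on. Growing cells carried the construct without 4OHT (3 Hi-C libraries, of which growing replicate 3 also carried the MSCV Vector), and cells in RAS-induced senescence (RIS) had received 100 nM 4OHT for 6 days (2 Hi-C libraries). Capture Hi-C, in which baits enrich the contacts of chosen regions, was available for 2 growing and 2 RIS libraries. The extra vector is in 1 growing library alone, no library of cells given 4OHT without the construct was analysed here, and the labels do not say whether replicates were separate infections, so the spread between them may be in part technical. The Hi-C libraries held between 109966277 and 180775295 recovered contacts, with the fewest in RIS replicate 1, and the median number of contacts across a strong shared border was between 1470 and 2551.

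Interphase chromosomes are folded into topologically associating domains, stretches that contact themselves more than their neighbours. The ring-shaped cohesin complex extrudes loops of chromatin and is stopped by the zinc-finger protein CTCF when the CTCF motif points towards it, so that motifs at the end and the start of neighbouring domains usually point away from each other. Independently of domains, active chromatin (compartment A) and silent chromatin (compartment B) each contact their own kind over long distances, and a place where A meets B is also a border.

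The deposited matrices hold no sequence, and the CTCF core consensus was therefore searched in the reference genome (GRCh37, the same assembly as hg19, in which all 22 autosome lengths matched the files). A match of this 14-letter consensus, on either strand, lay within the 2 bins that meet at the border in 747 of 2405 strong shared borders (31.1%), in 507 of 1686 weaker shared borders (30.1%) and in 12.8% of all autosomal positions with a score. The matches shown are those at the borders with the largest differences in depth between RIS and growing cells, in either direction, and at 1 of the borders of highest prominence. Each is given 5′ to 3′ on its own strand with the consensus in capitals and 8 flanking reference bases in lower case.
chr20:47237184-47237213, minus strand, left of the border in PREX1: agtgacggCCACTAGATGGCGCtgtgggcc
chr20:47252495-47252524, plus strand, right of the same border: agcagcagCCAGCAGAGGGCGCtccaaggc
chr20:47274422-47274451, plus strand, right of the same border: cacaatgtCCAGCAGAGGGCAGtggtggaa
chr15:86397751-86397780, plus strand, left of its border: tcaatgttCCACTAGGTGGCACtgatgatc
chr12:66481328-66481357, minus strand, left of the border at LLPH: agagtcggCCAGTAGATGGCACcctgagca
chr12:66501353-66501382, minus strand, left of the same border: aaatttttCCAGCAGATGGCAGtaaagggt
chr14:51686748-51686777, minus strand, left of the border at TMX1: ttaaggagCCACTAGGTGGCAGaggttgct
chr13:73270924-73270953, minus strand, left of the border at MZT1 and BORA: tcatttttCCACTAGATGGCAGaaaaagca
At the border in PREX1, which encodes a guanine nucleotide exchange factor for Rac, the left match and both right matches point away from each other, while the match on chromosome 15 points towards its border. Over the members as a whole, outward-pointing matches were the more frequent, with many exceptions. In the bin left of the border there were 312 matches on the minus strand and 136 on the plus strand, and in the bin to the right there were 328 on the plus strand and 133 on the minus strand. Weaker shared borders had the same order, with 220 minus and 105 plus on the left and 192 plus and 100 minus on the right. Over all autosomal positions the 4 counts lay between 2347 and 2378, with no preferred strand on either side. A match is a run of letters and does not show that CTCF was bound.

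**Figure D1:**
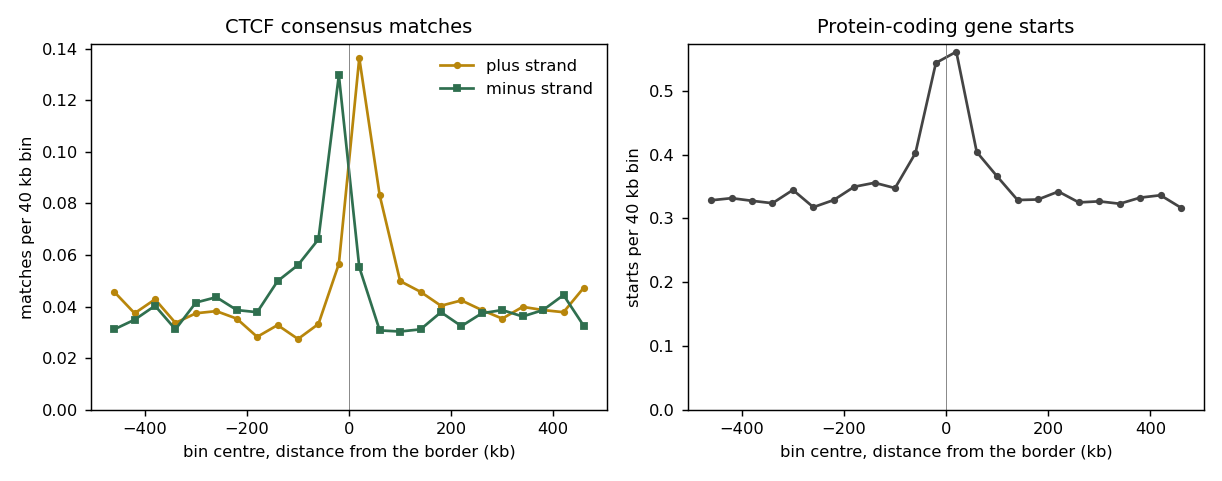
CTCF consensus matches on the plus and minus strand (left, matches per 40 kb bin) and starts of protein-coding genes (right, starts per 40 kb bin) by distance of the bin centre from 2405 strong shared borders (kb). Minus-strand matches peak in the bin just left of the border (0.13 per bin) and plus-strand matches in the bin just right of it (0.14 per bin), and gene starts peak in both (0.54 and 0.56 per bin).

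Gene starts were also denser at the borders. A protein-coding gene started within the 80 kb of the 2 border bins at 1418 strong shared borders (59.0%), at 61.2% of weaker shared borders and at 32.5% of all positions. Median GC content was 41.7% at strong shared borders and 39.8% over all positions. Of 19229 autosomal protein-coding genes, 2658 (13.8%) started at a strong shared border. The share was 22 of 76 (28.9%) for ribosomal protein genes and 13 of 50 (26%) for cell cycle genes. It was 35 of 466 (7.51%) for zinc finger (ZNF) genes, 12 of 398 (3.02%) for olfactory receptor genes and 3 of 49 (6.12%) for genes of the secretory phenotype, the set of cytokines and other factors that senescent cells release.

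Prominence of the strong shared borders in the mean growing matrix, the value that chose them, ran from 0.50 to 3.82 with a median of 1.18. Just inside the limit were the borders in ASIC2 (0.5003), at PHB1 (0.5005) and at UNC50 and COA5 (0.5008), and just outside it those at chr5:127520001-127600000 (0.4998) and at TPBGL (0.4986). The depth at PHB1 was 0.43, 0.47 and 0.54 in growing cells and 0.54 and 0.61 in RIS, and at TPBGL it was 0.35, 0.32 and 0.39 in growing cells and 0.52 and 0.50 in RIS, with both RIS libraries above all growing ones in each case. The same order held in ASIC2 (0.53, 0.39 and 0.30 in growing cells, 0.61 and 0.59 in RIS). At chr5:127520001-127600000 both RIS libraries were below all growing ones (0.61, 0.62 and 0.61 in growing cells, 0.55 and 0.54 in RIS). At UNC50 and COA5 the conditions overlapped (0.36, 0.39 and 0.32 in growing cells, 0.37 and 0.33 in RIS). Neighbouring strong shared borders were a median of 880 kb apart (quartiles 640 and 1280 kb). In all 5 libraries, 1889 of them (78.5%) sat in the same bin. Of the 2603 strong borders of growing cells, 128 and 117 had no match in RIS replicates 1 and 2, against 37, 24 and 44 in the growing replicates, which had themselves entered the mean that defined the borders. With compartments told apart by the first principal component of the growing contact matrix at 120 kb, 911 strong shared borders (37.9%) had compartment A on both sides, 891 separated A from B and 603 (25.1%) had B on both sides. Of all borders between A and B, 61.2% were strong and shared, against 43.2% of those within A and 40.9% of those within B.

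Strong shared borders were deeper in RIS. Depth was the mean score of the shoulders, 160 to 320 kb away on each side, minus the score at the border. Over 2392 members with a value, the median depth of the 3 growing libraries was 0.80, 0.81 and 0.80, in replicate order, and that of the RIS libraries 0.86 and 0.89. Both RIS libraries were above all growing libraries, and the mean difference of 0.07 compares with standard deviations of 0.0036 (n = 3) and 0.022 (n = 2). At single borders, both RIS libraries exceeded all 3 growing libraries at 1215 members (50.8%) and were below all of them at 382 (16.0%). Over all 4996 borders with a value the corresponding shares were 44.1% and 19%. Weaker shared borders were deeper in RIS as well in their mean profile. Their mean score 240 kb to the left was -0.054, -0.046 and -0.059 in growing cells and -0.015 and -0.031 in RIS. At the border itself it was -0.28, -0.27 and -0.29 in growing cells and -0.28 and -0.32 in RIS. Without RIS replicate 2, which leaves 1 RIS library, the difference in median depth was 0.057. Prominence in growing cells chose the members and is measured on the same score as depth, so these values are a description and carry no test. The rule also required a match in both RIS libraries, which 128 and 117 of the strong growing borders lacked in RIS replicates 1 and 2. All borders were under no such requirement, so the shares of deeper and shallower members depend in part on the rule. With members selected on the mean RIS matrix instead, the difference was 0.096.

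Libraries that played no part in a selection allowed a test of the same kind. Borders of prominence 0.5 or more in growing replicate 1 alone (2612) had a median depth of 0.78 in both growing replicates 2 and 3, 0.84 in RIS replicate 1 and 0.87 in RIS replicate 2. The RIS libraries lay above the growing ones by 0.07 with an exact two-sided permutation p of 0.33, which is the smallest p that 2 against 2 libraries can give.

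By compartment, the difference in depth was smallest within A and largest within B. In borders with A on both sides, median depth was 0.74, 0.76 and 0.75 in growing cells and 0.77 and 0.81 in RIS, a difference of 0.040 that was 0.019 without RIS replicate 2 and 0.060 without RIS replicate 1. In borders between A and B it was 0.97 in all 3 growing libraries and 1.05 and 1.08 in RIS, a difference of 0.096. In borders with B on both sides it was 0.71, 0.69 and 0.67 in growing cells and 0.80 in both RIS libraries, a difference of 0.11. The RIS libraries were above the growing libraries in each class, by the narrowest margin within A. Both RIS libraries exceeded all growing libraries at 39.8%, 54.7% and 61.5% of members in the 3 classes, against 38.5%, 47.8% and 48.6% of all borders of the same class. Members, unlike all borders, had to have a match in both RIS libraries, so these shares are not independent of the rule. Differences in depth change between the classes were not tested.

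**Figure D2:**
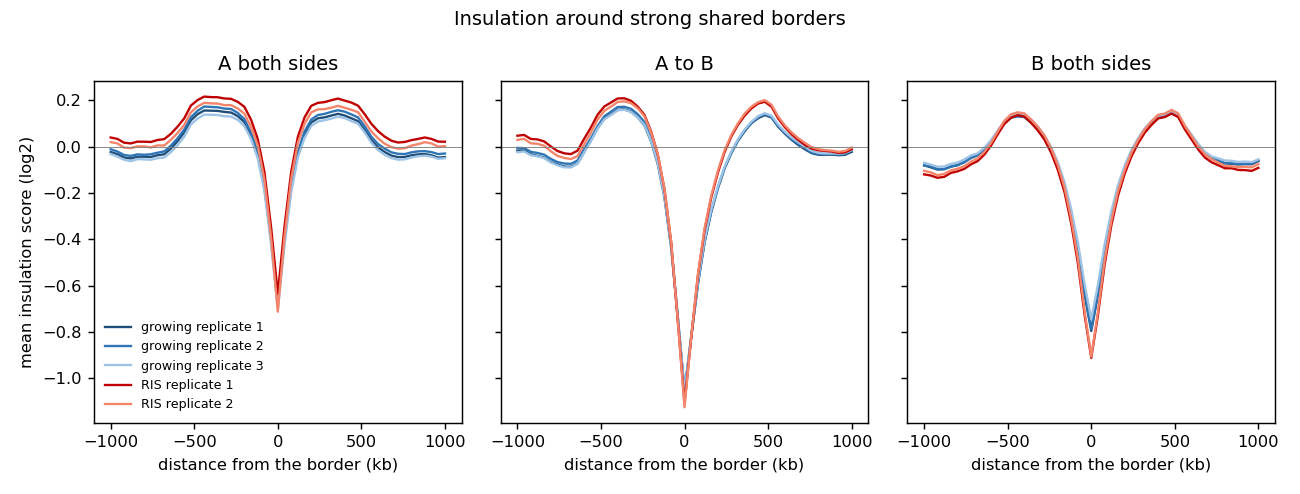
Mean insulation score (log2) against distance from the border (kb) for strong shared borders with A on both sides, between A and B (A drawn on the left) and with B on both sides, 1 line per Hi-C library. Within A and between A and B the RIS lines run above the growing lines on the shoulders and out to 1000 kb. Within B the shoulders overlap for the most part, while the RIS lines go lower at the border and again at 1000 kb from it.

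The score at the border and the scores of the shoulders did not shift alike. Within B the border itself was lower in RIS, at a median score of -0.83 and -0.82 against -0.76, -0.72 and -0.69 in growing cells. Within A the border score overlapped between conditions, with -0.65, -0.63 and -0.67 in growing cells and -0.61 and -0.69 in RIS. The left shoulder was at 0.11, 0.14 and 0.11 in growing cells and higher in RIS, at 0.21 and 0.18. This rise was not particular to the shoulder. At 1000 kb to the left the mean score within A was -0.024, -0.012 and -0.032 in growing cells and 0.039 and 0.019 in RIS. Weaker shared borders were also higher there, at -0.033, -0.027 and -0.038 against 0.0004 and -0.012. The shoulders of borders within B overlapped, with -0.035, -0.037 and -0.0085 on the left in growing cells and -0.019 and -0.0023 in RIS. Nor was the lower score within B confined to the border. At 1000 kb to the left the mean score within B was -0.081, -0.082 and -0.070 in growing cells and -0.120 and -0.105 in RIS. Over all strong shared borders the score was higher in both RIS libraries at 27.0% and lower at 39.0%, next to 29.8% and 35.7% of all borders.

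Contacts were next expressed as observed over expected, the expectation being the mean of the chromosome at the same distance in the same library. Within the flanks, that is between bins 80 to 480 kb apart on the same side, the median log2 value was 0.27, 0.27 and 0.26 in growing cells and 0.31 in both RIS libraries. Both RIS libraries were higher at 47.2% of members and lower at 21.2%, next to 43.4% and 23.5% of all borders. Across the border, over the same distances, the median was -0.82, -0.82 and -0.83 in growing cells and -0.86 and -0.91 in RIS. Both RIS libraries were higher at 499 of 2374 members and lower at 1008 (42.5%), next to 23.5% and 39.9% of all borders. These shares lie close to those of all borders. At weaker shared borders the median within the flanks was higher in RIS by 0.036, next to 0.040 at strong shared borders, and the median across the border was lower by 0.031, next to 0.064. These windows overlap those that chose the members and were not tested.

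By compartment, flank contacts were higher in RIS by 0.04 both within A and between A and B, without overlap between conditions, and the medians of B overlapped (0.052, 0.038 and 0.055 in growing cells, 0.034 and 0.050 in RIS). Contacts across the border showed the reverse order. Within A they overlapped (-0.66, -0.66 and -0.71 in growing cells, -0.64 and -0.73 in RIS), between A and B they went from -1.07, -1.06 and -1.09 to -1.14 and -1.17, and within B from -0.80, -0.80 and -0.77 to -0.93 and -0.92. At borders between A and B both flanks were higher in RIS, going from 0.36, 0.37 and 0.36 to 0.41 and 0.42 in the A flank and from 0.14, 0.13 and 0.15 to 0.19 and 0.20 in the B flank. Contacts across a border in B were lower in both RIS libraries at 60.7% of members, and within all borders of B at 54.7%.

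**Figure D3:**
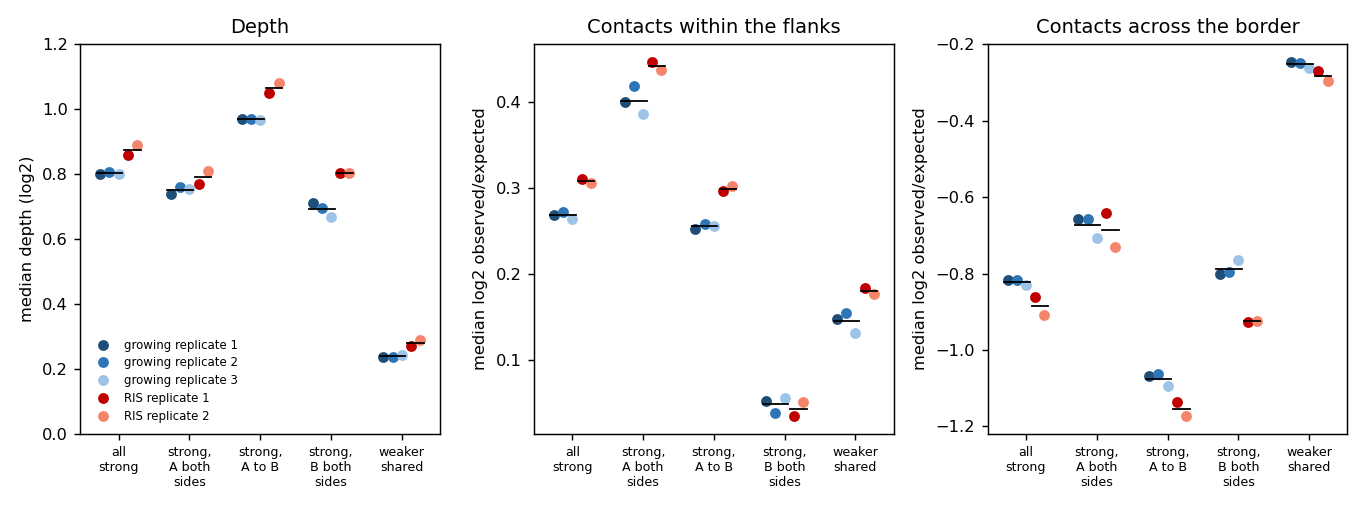
Median depth (log2), contacts within the flanks and contacts across the border (log2 observed over expected) for all strong shared borders, for their 3 compartment classes and for weaker shared borders, 1 point per Hi-C library and a black line at the mean of each condition. Flank contacts are separated by condition within A and between A and B, and contacts across the border are separated between A and B and within B.

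In the mean contact map, every one of the 66 cells within the left 520 kb and of the 66 within the right 520 kb was higher in RIS, by 0.034 and 0.035 on average. Of 168 cells across the border with both bins within 520 kb, 153 were lower, by 0.050 on average over all of them. Farther out, with both bins 520 to 800 kb from the border, 41 of 49 cells were higher, by 0.021 on average. Cells of a map share borders and libraries and are not replicates.

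**Figure D4:**
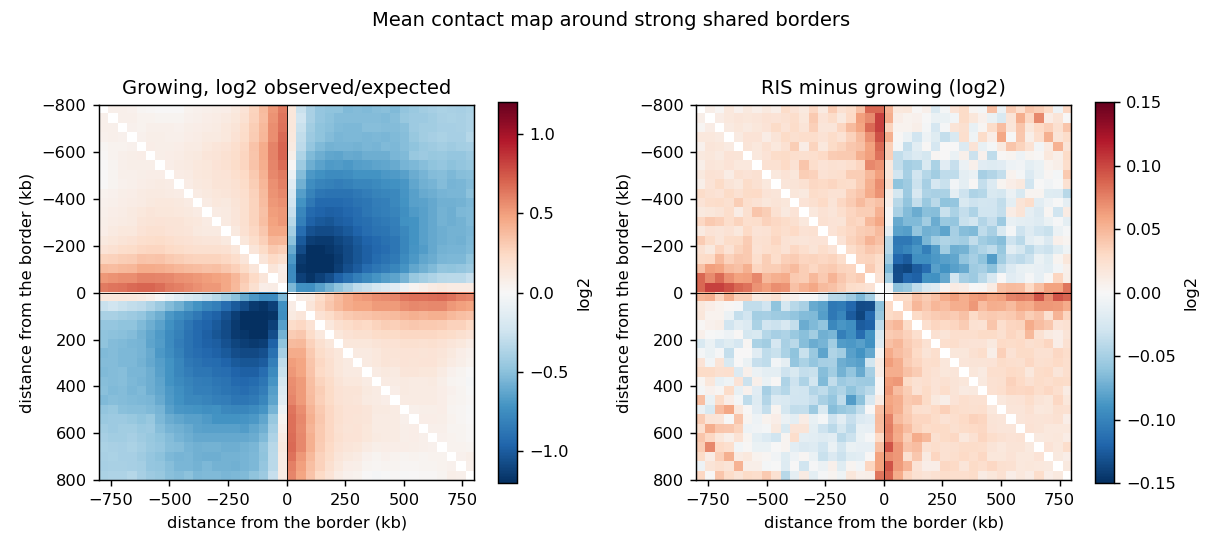
Mean contact map around strong shared borders, with both axes the distance of a bin from the border (kb). The left map shows growing cells as log2 observed over expected and the right map RIS minus growing (log2), where the squares beside the diagonal are higher by 0.034 and 0.035 and the corner across the border is lower by 0.050.

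Contacts that span the border but join bins 1.04 to 2 Mb apart share no pair with the insulation score and could be tested. Their median over 2365 members was -0.56, -0.52 and -0.49 in growing cells and -0.49 and -0.57 in RIS, a difference of -0.0020 that was smaller than the spread between libraries (exact two-sided permutation p = 0.9, against a smallest possible 0.1). The sign depended on the libraries, with 0.053 within those with few duplicates and -0.073 within those with many, and on the distance. At 51 to 100 bins the difference was -0.079, with both RIS libraries below all growing ones (exact permutation p = 0.1). There limma called 472 members higher and 935 lower (20.3% and 40.2%). The shares were 17.4% and 42.6% of all borders and 13.5% and 48% of weaker shared borders. At 1.04 to 2 Mb, border by border, limma with Benjamini-Hochberg adjustment at 0.05 called 525 members higher in RIS and 684 lower (22.2% and 28.9%), next to 20% and 30.8% of all 4918 borders tested. At an unadjusted p under 0.05 there were 1389 of 2365 members and 2853 of all 4918 borders. Single borders thus changed in both directions, at shares near those of all borders. Neighbouring strong shared borders were a median of 880 kb apart, so a pair 1.04 to 2 Mb apart can span more than 1 of them. The calls are therefore not of independent borders, and a change called at 1 border need not be particular to it. Within A, 184 members were called higher (20.5%) and 292 lower (32.6%), next to 18% and 37.6% of all borders within A. Within B, 135 were called higher (22.9%) and 126 lower (21.4%), next to 21.5% and 21.2% of all borders within B. At 51 to 100 bins the shares within A were 11.6% and 52.7%, next to 9.75% and 56.4% of all borders within A. Within B they were 30.2% and 24.2% at that distance, next to 25% and 23.8% of all borders within B. At 1.04 to 2 Mb the calls over all members moved with the libraries used. Without growing replicate 2 they were 290 higher and 472 lower (12.3% and 20%), next to 11% and 22.2% of all borders. Leaving out an RIS library leaves 1, so only the difference in the median is given here. It was -0.041 without RIS replicate 1 and 0.037 without RIS replicate 2.

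The class medians of these distant contacts gave exact permutation p = 0.7 within A, p = 0.7 between A and B, and p = 0.1 within B, where the growing libraries were at -0.11, -0.10 and -0.10 and both RIS libraries at -0.07. The RIS libraries thus lay above all growing ones within B, with contacts across the border lower inside 520 kb and higher beyond 1 Mb. With 3 classes compared, none passes an adjusted threshold of 0.05, which 3 against 2 libraries cannot reach. The growing matrices had also set the classes, from contacts that include these distances. The class tests are therefore not independent of that choice. Strong shared borders stood above weaker ones by 0.13, 0.12 and 0.11 in growing cells and by 0.14 in both RIS libraries. The exact permutation p of 0.1 compares this gap between RIS and growing cells, not strong with weaker borders. The sets differ in class, with A on both sides at 37.9% of strong and 51.96% of weaker shared borders. In every library weaker borders were lower within A and between A and B, but higher within B. Whether class mix accounts for the gap was not tested.

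The A/B step is the difference in compartment score between the flanks of a border, on a scale on which the score has a standard deviation of 1 per chromosome and library. Its median over 2270 members was 0.69, 0.70 and 0.72 in growing cells and 0.53 in both RIS libraries, a difference of -0.17 (exact two-sided permutation p = 0.1, the smallest possible). Both RIS libraries were higher at 19.2% of members and lower at 50.9%, next to 19.9% and 47.1% of all borders. The members were chosen in the growing matrices from which the growing scores also come. That choice may favour a large step in growing cells, so the test is not independent of it. The step was not computed with members selected on the mean RIS matrix. The step was smaller in RIS while the borders were deeper. Growing scores had defined the classes, so the step by class is given without a test. Between A and B it was 1.27, 1.26 and 1.29 in growing cells and 1.05 and 1.08 in RIS, whereas within B it was 0.68, 0.69 and 0.68 in growing cells and larger in RIS, at 0.74 and 0.75. Since every library is scaled to the same standard deviation, a smaller step is relative to the other scores of that chromosome. Across 2217 members the change in step and the change in depth had a Spearman rho of 0.29, as a description only, since both come from the same libraries.

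Depth was higher in RIS on nearly every chromosome. The medians of both RIS libraries lay above those of all growing libraries on 21 of 22 autosomes, chromosome 19 being the exception (0.79, 0.83 and 0.77 in growing cells, 0.82 and 0.85 in RIS). The largest differences were on chromosome 22 (38 members; 0.82, 0.86 and 0.92 in growing cells, 0.98 and 1.06 in RIS) and chromosome 16 (73 members; 0.82, 0.84 and 0.79 against 0.93 and 0.98), and the smallest was on chromosome 1, at 0.040 over 217 members. Density ran from 0.775 members per Mb of usable sequence on chromosome 4 to 1.16 on chromosome 22.

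The distant contacts divided the chromosomes. They were higher in both RIS libraries on chromosomes 4, 6 and 13, and lower in both on chromosomes 14, 16, 19, 20, 21 and 22, with overlap on the other 13. On chromosome 6 the median went from -0.51, -0.47 and -0.45 in growing cells to -0.32 and -0.38 in RIS. On chromosome 16 it went from -0.85, -0.78 and -0.70 to -0.97 and -1.04, and on chromosome 22 from -0.62, -0.59 and -0.53 to -0.75 and -0.84. The mean depth of the RIS libraries was higher on each of these chromosomes, whichever way the distant contacts went, with overlap between libraries on chromosome 19. None of the 22 permutation tests passed adjustment, the lowest adjusted p being 0.275.

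**Figure D5:**
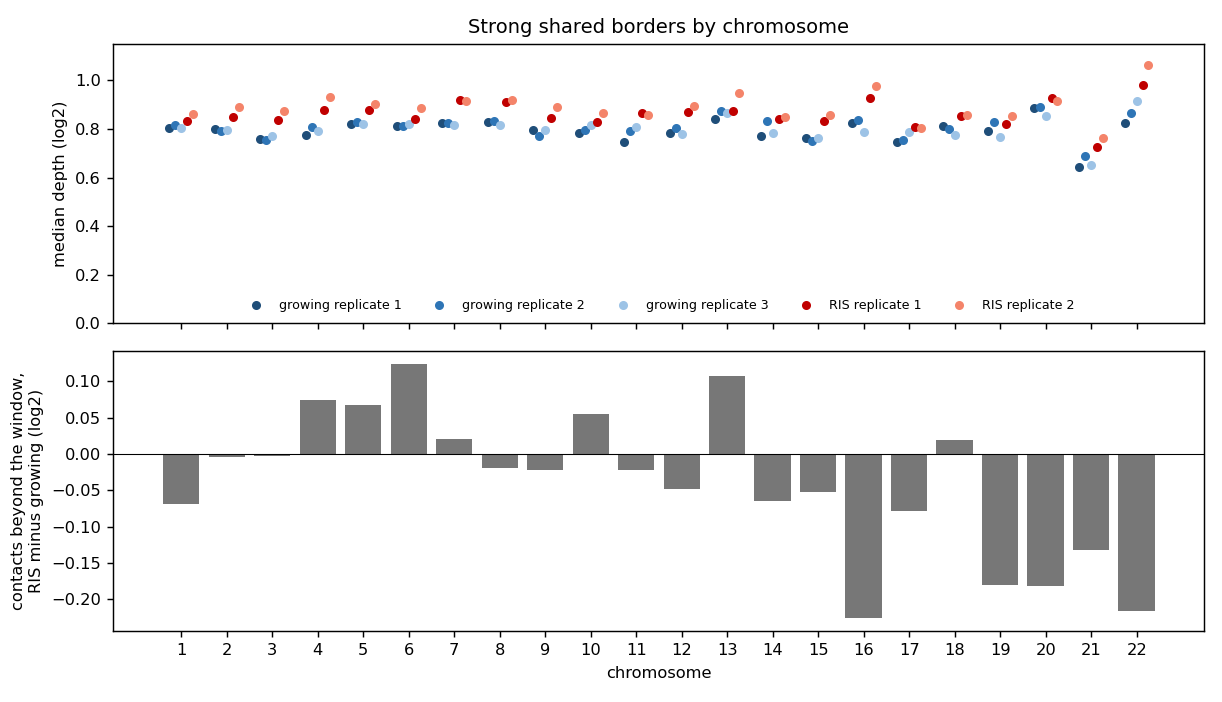
Median depth of strong shared borders (log2, upper panel, 1 point per Hi-C library) and the RIS minus growing difference in contacts beyond the window (log2 observed over expected, lower panel) by chromosome. RIS points lie above growing points on 21 of 22 chromosomes, while distant contacts were higher on chromosomes 4, 6 and 13 and lower on 16, 19, 20 and 22 among others.

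The borders of highest prominence mostly separated A from B. The strongest, chr7:54760001-54840000 at SEC61G, which encodes a subunit of the channel that carries proteins into the endoplasmic reticulum, had a depth of 2.36, 2.45 and 2.13 in growing cells and 2.29 and 2.37 in RIS, with overlap between conditions. Its contacts beyond the window fell from -0.33, -0.32 and -0.36 to -0.72 in both RIS libraries (limma, difference -0.38, SE 0.045, adjusted p = 0.00183). Depth thus overlapped between conditions where the distant contacts fell. The border at SNAI2, a repressor of epithelial genes, was 2.21, 2.29 and 2.25 deep in growing cells and 2.09 and 2.19 in RIS, below all growing values. At chr13:73240001-73320000, where MZT1, a part of the microtubule-nucleating ring complex, and BORA, an activator of Aurora A kinase, start at a border with the minus-strand match shown above, depth was 1.95, 2.04 and 2.01 in growing cells and 2.26 and 2.31 in RIS. Distant contacts fell there as well (-0.34, SE 0.048, adjusted p = 0.00268 by limma). The border at chr4:160360001-160440000, without a gene start, went from 2.28, 2.39 and 2.32 to 2.87 and 2.68, and its distant contacts fell by 0.47 (SE 0.064, adjusted p = 0.0024 by limma). The border at chr9:107480001-107560000, where NIPSNAP3A and NIPSNAP3B start beside ABCA1, the cholesterol exporter, went from 2.33, 2.52 and 2.37 to 3.07 and 3.15, without overlap. The distant contacts there fell by 0.27 (SE 0.049, adjusted p = 0.00566 by limma). The border at HMGXB4 was within the growing range in RIS (2.43, 2.26 and 2.36 against 2.28 and 2.39), and at JRKL and CCDC82 the conditions overlapped too. Distant contacts did not pass the limma threshold at the remaining borders with a value, with differences of -0.04 at SNAI2 (adjusted p = 0.595), 0.22 at HMGXB4 (adjusted p = 0.0995) and -0.17 at JRKL and CCDC82 (adjusted p = 0.0567). The other 3 of the top 10, on chromosomes 1, 7 and 15, lay beside unusable bins and had no value for distant contacts.

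The 5 members with the largest positive difference in depth were chosen for it among those without overlap and are given as a description. In PREX1 (chr20:47200001-47280000) depth was 1.17, 1.10 and 0.85 in growing cells and 1.99 and 1.94 in RIS. Contacts across it went from -0.99, -0.95 and -0.78 to -1.95 and -1.68, while those within its flanks went from 0.35, 0.35 and 0.26 to 0.54 and 0.52. This border, with its outward-pointing matches, thus held fewer crossing contacts and fuller flanks in RIS. At PTH2R, a receptor of the parathyroid hormone family, and PIKFYVE, a phosphoinositide kinase, within B, depth went from 1.12, 1.08 and 1.04 to 2.05 and 1.92, and here the flanks were lower in RIS as well (-0.28, -0.32 and -0.24 in growing cells, -0.45 and -0.43 in RIS). At TRRAP, the scaffold of histone acetyltransferase complexes, and TMEM130, depth went from 2.02, 1.94 and 1.94 to 2.70 and 2.76, with higher contacts within the flanks (0.64, 0.66 and 0.69 in growing cells, 0.91 and 0.86 in RIS). At chr15:86360001-86440000 and chr5:98360001-98440000, neither with a protein-coding gene over it, the differences were 0.87 and 0.83, and the first of these lies within 25 bins of an unusable bin.

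The 5 members with the largest negative difference, again chosen for it, were of more than 1 kind. At LLPH (chr12:66480001-66560000), which encodes a nucleolar protein, depth went from 1.70, 1.63 and 1.53 to 1.07 and 1.13, with a difference of -0.71 in the left shoulder and 0.17 in the border score. In NRG1, which encodes the ErbB ligand neuregulin, the border at chr8:32360001-32440000 went from 0.61, 0.59 and 0.70 to 0.16 and 0.11, with a difference of -0.97 in the right shoulder and -0.06 in the border score. Flank contacts at both borders went from above to below the chromosome average, from 0.23, 0.24 and 0.28 to -0.13 and -0.11 at LLPH and from 0.34, 0.34 and 0.36 to -0.23 and -0.22 in NRG1. The border in NRG1 had a higher prominence in RIS (1.65 and 1.09) than in growing cells (0.59, 0.60 and 0.68), so prominence and depth at fixed shoulders went apart there.

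At TMX1, an enzyme of protein folding in the endoplasmic reticulum, the difference lay at the border itself. Depth went from 1.18, 1.19 and 1.16 to 0.76 and 0.81, and contacts across the border from -1.19, -1.18 and -1.25 to -0.56 and -0.65, while flank contacts stayed between 0.65 and 0.71. At VAC14, a scaffold of the PIKfyve lipid kinase complex, and HYDIN, contacts across the border likewise went from -2.07, -2.06 and -2.10 to -1.56 and -1.75, with an unusable bin within 25 bins. At PLGLB2 and RGPD2 depth went from 0.94, 0.97 and 0.86 to 0.37 and 0.66, but this border lies beside unusable bins, in a region of near-identical gene copies where read placement is uncertain.

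Among the genes of the lists that started at a strong shared border, the order of the libraries went both ways. Of 13 cell cycle genes, 4 lay at borders deeper in both RIS libraries (PLK1, MCM2, CCNA2 and CCND3) and 5 at borders shallower in both (CDK1, MCM6, CDC25A, MAD2L1 and MYC), where 50.8% of all strong shared borders were deeper and 16.0% shallower. So small a number of genes allows no reading of this difference. At MCM2, a subunit of the replicative helicase, depth went from 1.21, 1.14 and 1.12 to 1.37 and 1.47, and at CCNA2, cyclin A, from 0.95, 0.98 and 1.04 to 1.21 in both. At CDC25A, a phosphatase that activates cyclin-dependent kinases, it went from 0.88, 0.81 and 0.85 to 0.63 in both. MYC, the growth-promoting transcription factor, lay at a border with a depth between 1.19 and 1.28 in growing cells and of 0.91 and 1.03 in RIS. None of these single-border differences in depth was tested.

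Of the 3 secretory genes, INHBA, the subunit of activin A, lay at a border that was shallower in RIS (0.85, 0.90 and 1.01 against 0.65 and 0.66). Depths at IGFBP5 and CSF2 overlapped between conditions. Of 3 genes linked to cohesin or CTCF function, LDB1, which bridges enhancers and promoters, lay at a deeper border (0.83, 0.87 and 0.85 against 1.12 and 1.14), PDS5A, a regulator of cohesin, at a shallower one (0.96, 1.00 and 1.04 against 0.91 and 0.85), and PDS5B overlapped. Of 3 genes of the lamina and heterochromatin, LBR, the lamin B receptor that tethers heterochromatin to the nuclear envelope, lay at a shallower border (1.92, 1.90 and 1.93 against 1.63 and 1.70), and LMNA and MACROH2A1 overlapped.

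Borders with and without a gene start or the CTCF consensus were deeper in RIS. Both RIS libraries were deeper at 49.2% of members with a gene start and 53.1% without, and at 50.7% with the consensus and 50.9% without. The median depth was higher in RIS by 0.064 with a gene start and 0.084 without. By class, these differences were 0.042 with a gene start and 0.048 without within A, 0.095 and 0.086 between A and B, and 0.14 and 0.10 within B. With the CTCF consensus the median was higher by 0.063 and without it by 0.076. By class, these differences were 0.069 with the consensus and 0.030 without within A, 0.068 and 0.103 between A and B, and 0.108 and 0.115 within B. These are differences between the library medians, and the order depends on the statistic. The median change per border was 0.068 with a gene start and 0.074 without, and 0.075 with the consensus and 0.069 without. By class it was larger with than without either feature, at 0.041 against 0.030 for a gene start and 0.048 against 0.033 for the consensus within A, 0.099 against 0.090 and 0.1001 against 0.0954 between A and B, and 0.124 against 0.108 and 0.125 against 0.106 within B. None of these contrasts was tested.

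Capture Hi-C at 10 kb covered 11 strong shared borders, in libraries that the choice of members had not used, though their cells may be those of the Hi-C libraries. Depth was taken over a 200 kb window at the lowest score within 80 kb of the border. Median depth was 1.49 in both growing libraries, 1.56 in RIS replicate 1 and 1.66 in RIS replicate 2, a difference of 0.11 (exact two-sided permutation p = 0.33, the smallest possible). The difference was 0.061 without RIS replicate 2, 0.167 without RIS replicate 1 and 0.048 with 10 bins on either side. With the 200 kb window the growing medians were the values at SLC1A2, and the RIS medians those at TMEM44 and LSG1. These borders themselves changed by 0.0098 and 0.013. The difference of 0.11 is thus between medians and is not a change at any single border. Both RIS libraries were above both growing libraries at 6 borders and below at 2. At chr18:47360001-47440000, between A and B, depth went from 1.42 and 1.32 to 1.74 and 1.72, at STMN2, a neuronal microtubule regulator, from 1.77 and 1.80 to 2.09 and 2.08, and at MRO, within B, from 0.75 and 0.69 to 1.01 and 0.92. These 3 had the largest positive differences of the 11. The border at the histone genes H2BC3, H3C3 and H2AC4 went from 2.04 and 2.02 to 1.70 and 1.76, and that at PDHX and APIP from 2.16 in both to 2.00 and 2.07. The remaining borders were at POLR1B and CHCHD5, TMEM44 and LSG1, and SLC1A2, where the libraries overlapped, and at DYM, chr1:197320001-197400000 and chr13:49320001-49400000, where both RIS libraries were higher. The difference between conditions had the same sign in capture Hi-C and Hi-C at all 11 borders, counted from the group means.

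The libraries differed in other ways that run beside these results. RIS replicate 1 was the shallowest, and with every library thinned to its number of contacts the median depth differed by 0.075 between conditions. The alignment summary of the study set growing replicate 3 and RIS replicate 2 apart by their share of duplicate reads, and within these libraries depth was higher in RIS by 0.090, and within the remaining ones by 0.057. The same summary shows a share of unligated ends that separates the RIS from the growing libraries, so that library preparation and condition cannot be told apart on that count.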

How the data were processed

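The authors deposited Hi-C matrices at 40 kb and capture Hi-C matrices at 10 kb, built with HiC-Pro on hg19, whose values are a signal, namely contacts balanced by iterative correction (ICE) so that every bin has the same total. The deposited signal of each Hi-C library sums to 200000000 over both orientations, so levels are relative to a library. Dividing by the balancing factor of each bin gave whole contacts (100% of values under 20, within 0.05), which gave the depth of each library. Only bins with contacts in all 5 libraries were used (65957 autosomal bins), and a score needed 7 usable bins of 13 on each side. Scores, borders and exact permutation tests over libraries were computed with NumPy 2.4.6 and SciPy 1.17.1, and per-border tests with limma 3.58.1 over all borders. Compartment scores were signed by gene density. Gene names and starts came from the GENCODE annotation lifted to GRCh37. Scripts were tested on simulated data. Named borders were the 10 of highest prominence, the 5 whose depth rose and the 5 whose depth fell most without overlap, those in captured regions, 3 on each side of the limit (1 of them is not reported here), and genes of the lists at a border. The members and lists were chosen with earlier results of these data known. Counting error covers sampling of contacts only and was 1.98% to 2.61% at the median border.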

Additional observations from a re-analysis of the deposited data

How the results depend on the processing

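Depth of strong shared borders was higher in RIS in every setting tried, by 0.057 to 0.097. The difference of 0.073 became 0.088 with 7 bins, 0.096 with members selected on mean RIS, 0.097 with the highest score within 13 bins as shoulders, 0.057 within the libraries with few duplicates and 0.090 within those with many, and 0.057 to 0.086 with 1 library left out. Without 1 library there were 1284 to 1495 deeper and 420 to 625 shallower members, and no count over all borders was made for these settings. With 25 bins the number of members was 1555, and without 1 library it was 2414 to 2431. Flank contacts differed by 0.038 to 0.042 without 1 library. Contacts across the border changed by -0.098 with 7 bins and by -0.088 to -0.040 without 1 library, and within A by -0.055 to 0.032. Flank contacts within B changed by -0.014 to 0.0018, the positive value being without RIS replicate 1. The direction of the median of the distant contacts varied with the setting. It was -0.041 to 0.037 without 1 library, 0.053 within the libraries with few duplicates and -0.073 within those with many, 0.027 without the lowest 10% of borders, and -0.079 over 51 to 100 bins, where both RIS libraries lay below all growing ones (exact permutation p = 0.1, the smallest possible). The value was positive without growing replicate 3 (0.014) and without RIS replicate 2 (0.037). The cause was not tested. By limma, 263 to 515 members were higher and 369 to 718 lower without 1 library, and over 51 to 100 bins 472 were higher and 935 lower. The lowest counts without 1 library came from fits that left 1 RIS library, so no reading is drawn from them. Without growing replicate 1 the shares were 17.8% higher and 30.4% lower, next to 16.2% and 32.2% of all borders. Without growing replicate 3 they were 21.8% and 26.1%, next to 19.4% and 28.5% of all borders. The replicate numbers 1 and 2 occur in both conditions. With them as a replicate block the median distant contact changed by 0.014, and depth differed by 0.073. In that setting limma called 349 members higher and 509 lower (14.8% and 21.5%), next to 13.4% and 24.1% of all borders. Deviations of libraries with the same number correlated at -0.19 and -0.038, and only 2 numbers are shared. The 2 RIS libraries deviate from their own mean as mirror images. These correlations therefore cannot show whether libraries of the same number share more than the number. Chosen after seeing the data were the thinning, the duplicate classes for distant contacts, the A/B step without chromosomes 1 and 21 (-0.18), members away from unusable bins, and the counts without 1 library. With 3 and 2 libraries no exact test can pass 0.05, and the settings cannot separate condition from library preparation.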
